A study of Homo sapiens with 4 samples.

Results

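The SLC25 family of mitochondrial carriers was examined in HepG2 cells given berberine. Genes were members if the array's annotation names them SLC25A followed by a number, or UCP1, UCP2, UCP3, MTCH1 or MTCH2. This gave 47 genes, measured by 53 probes, among 17778 named genes. All 47 member names are current human symbols, and family members that the array's annotation does not name were not analysed here.

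Carriers of this family sit in the inner mitochondrial membrane, apart from a few in the outer membrane or in peroxisomes. They exchange nucleotides, phosphate, carboxylates, amino acids, cofactors and iron between the cytosol and the matrix. In hepatocytes they are known for exporting citrate to lipid synthesis, for importing acylcarnitines to fat oxidation, and for carrying the intermediates of the urea cycle and of gluconeogenesis. The uncoupling proteins belong to the same family and are known for letting protons or anions across the membrane.

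The series concerned berberine, a plant alkaloid, and the viability of HepG2 cells, an established human hepatocellular carcinoma line. Total RNA was measured on 4 one-colour arrays. Of these, 2 were of control cells without berberine and 2 of cells with 26.95 µM berberine for 24 hours, all grown in DMEM with serum. The description field differs: it names an adipogenic cocktail (MDI), 48 hours and, for the treated samples, 13.47 µM. This conflict was not resolved, and the title, source and treatment fields were followed. Whether the replicates are separate cultures is not stated, and the p-values thus cover only the differences among these 4 arrays, possibly technical ones.

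The labels give human cells, yet every one of the 26423 probes has an identifier of mouse array design. A gene name below is that of a mouse probe, and how well the human transcript binds it is not known. Levels are log2 values of the quantile normalized intensity plus 1. The 528 genes named as olfactory receptors, which liver cells are not known to express, gave a reference for background. This reference, chosen after the data were seen, had a median of 6.05, a 95th percentile of 9.24 and a highest level of 11.85, with 27 genes above 9.24. The medians of the deposited intensities ran from 62 to 90, and the 5th percentile was 4 in control replicate 2 against 25 to 30 in the others. Of 10 measured hepatocyte markers, 0 had a mean above 9.24, and 3 (AFP at 4.75, TTR at 5.25 and APOH at 4.55) were not above the olfactory receptor median. The mean over these 10 was 6.79 and 6.73 in the controls and 6.61 and 6.69 with berberine. Of 9 adipocyte, 6 fibroblast and 4 macrophage markers, 0 had a mean above 9.24. The markers' part in the results below was not tested.

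Of the 47 members, 11 had a mean above 9.24, 25 lay between the olfactory receptor median and that level, and 11 were not above the median. Over all named genes 9.15% had a mean above 9.24. Means of the 36 members at or below 9.24 do not exceed the 95th percentile of the background reference. Those of the 11 others exceed it but stay below its highest level of 11.85. All 47 members, SLC25A33 and SLC25A1 included, thus lie within its full range. In bulk samples fewer transcripts per cell and fewer cells that hold them cannot be told apart.

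**Figure D1:**
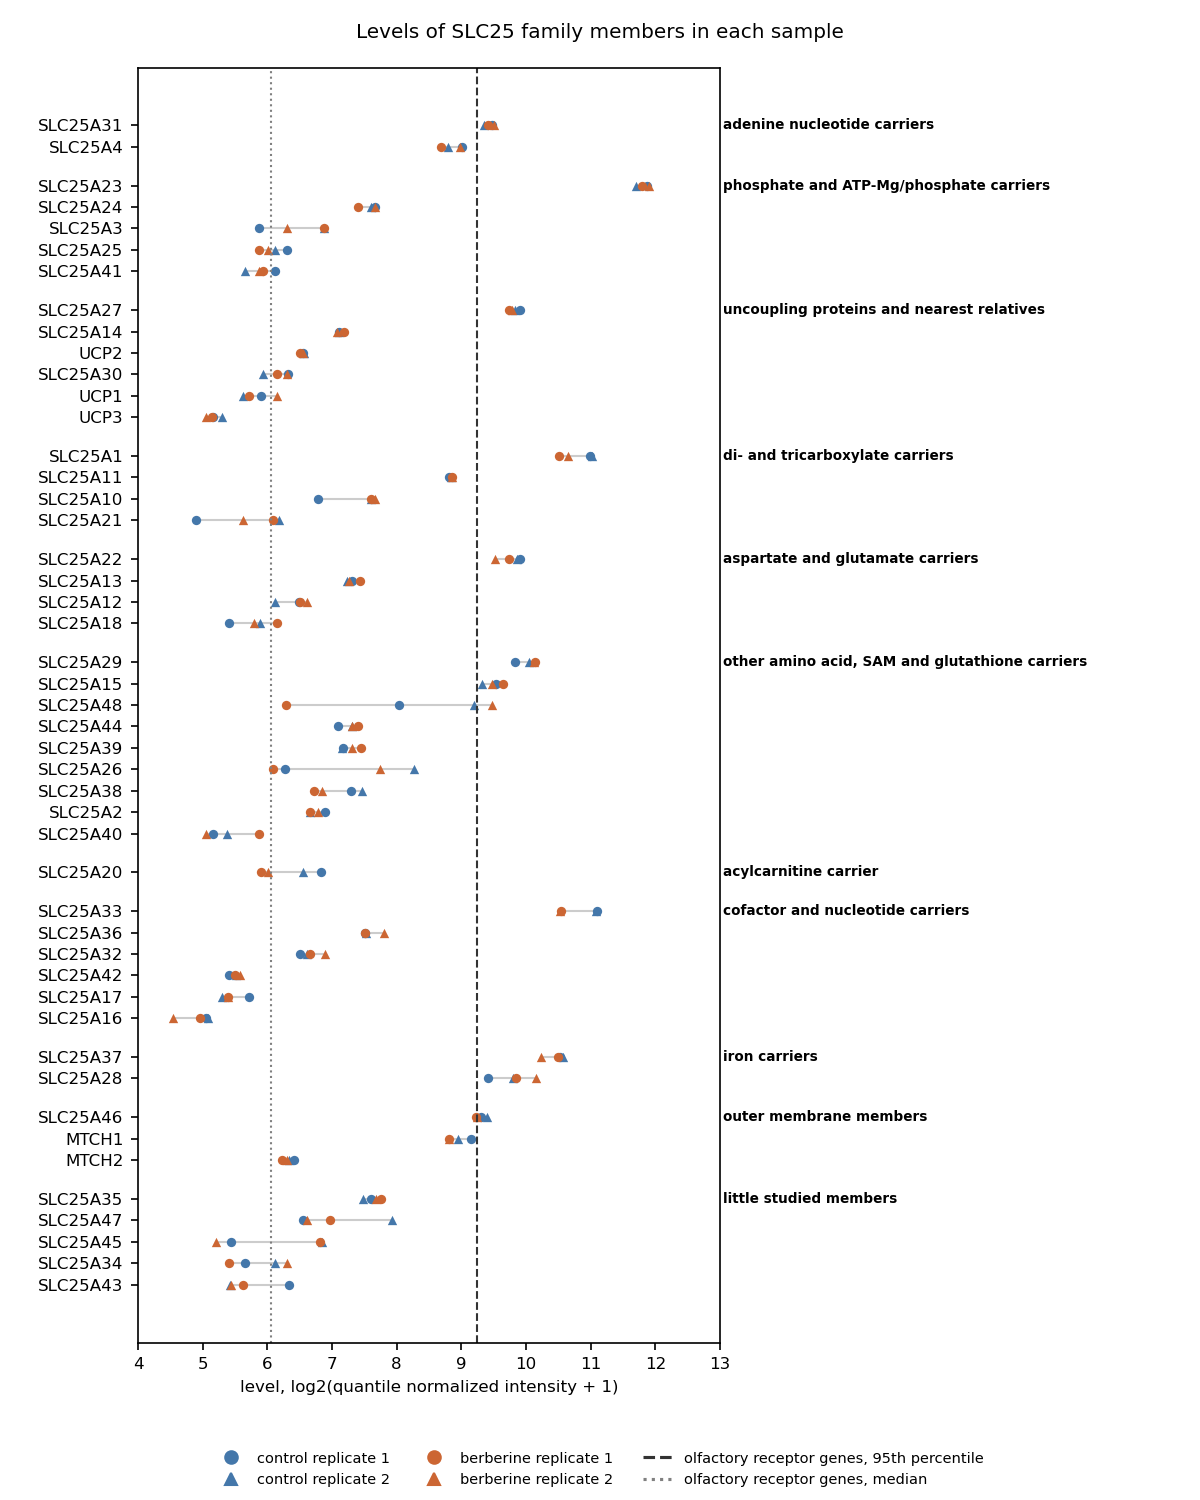
Level of each of the 47 members (rows, grouped by role) in each of the 4 samples, as log2(quantile normalized intensity + 1); blue points are controls, orange points berberine, circles replicate 1 and triangles replicate 2. The dashed line (9.24) and the dotted line (6.05) are the 95th percentile and the median of 528 olfactory receptor genes. SLC25A33 and SLC25A1 show both orange points below both blue points to the right of the dashed line, and SLC25A48 and SLC25A26 spread widely within each group.

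Berberine-treated and control samples were compared for every named gene with limma, with Benjamini-Hochberg adjustment over 17778 genes. No family member passed the threshold of 0.05 (0 of 47), where 0.0506% of all genes passed, 0.045% higher and 0.00562% lower with berberine. At an unadjusted limma p under 0.05 there were 4 members, SLC25A33, SLC25A20, SLC25A38 and SLC25A1, all lower with berberine. Of all genes 13% had such a p, with 6.36% lower and 6.68% higher. The members' share of 8.51% is below the first of these and above the share of lower genes alone. Among the 11 members above 9.24 there were 2 (18.2%), where 27.9% of the genes above that level had such a p. A second limma test, called the trend test below, lets the prior variance follow the mean intensity. There SLC25A33 was the 1 member that passed (2.13%), where 1.46% of all genes passed, 0.962% higher and 0.501% lower. Of the genes above 9.24, which number 1626, 2.89% fell in the trend test. Its unadjusted p was under 0.05 for 4 members and for 14.7% of all genes.

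After quantile normalization the family as a whole was centred near no change. Log2 fold changes of the 47 members ran from -0.73 to 0.45 with a median of -0.03, against a median of -0.01 over all genes. The median size of the log2 fold change was 0.18 in the family and 0.18 over all genes. Positive values were found for 23 members and negative ones for 24, a share higher of 48.9%, where 48.6% of all genes were higher. With median centring in place of quantile normalization the split was 17 and 30 (36.2% higher, against 46.2% of all genes). The family median was then -0.12, against -0.03 over all genes. With values as deposited the split was 23 and 24, where 58.6% of all genes were higher. There the family median was -0.01, against 0.08 over all genes. Both berberine samples lay on one side of both controls for 21 members (44.7%), 8 higher and 13 lower, where 45% of all genes did so, 21.7% higher and 23.3% lower. With values as deposited, 10 members did so (21.3%), 1 higher and 9 lower, where 24.1% of all genes did, 11.4% higher and 12.7% lower. With median centring, 20 members did so (42.6%), 2 higher and 18 lower, where 47.3% of all genes did, 15.3% higher and 32% lower. Among the 11 members above 9.24 the groups did not overlap for 8, 2 higher and 6 lower, where 69.4% of all genes above that level did not overlap, 30% higher and 39.4% lower. The shares of members with non-overlapping groups in either direction were within a few percentage points of those of all genes. In each of these 4 counts the share higher was smaller among members than among all genes and the share lower was larger. The 4 counts rest on the same 4 arrays, so their agreement is not repeated evidence, and this difference was not tested. Of the members 23.4% lay above 9.24, against 9.15% of all genes, and the part of level in the difference was not tested either. All 11 members above 9.24 had lower log2 fold changes with median centring than with quantile normalization. Members at or below 9.24 moved in both directions. How the other genes above 9.24 moved was not examined, so this is not read as a trait of the family.

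**Figure D2:**
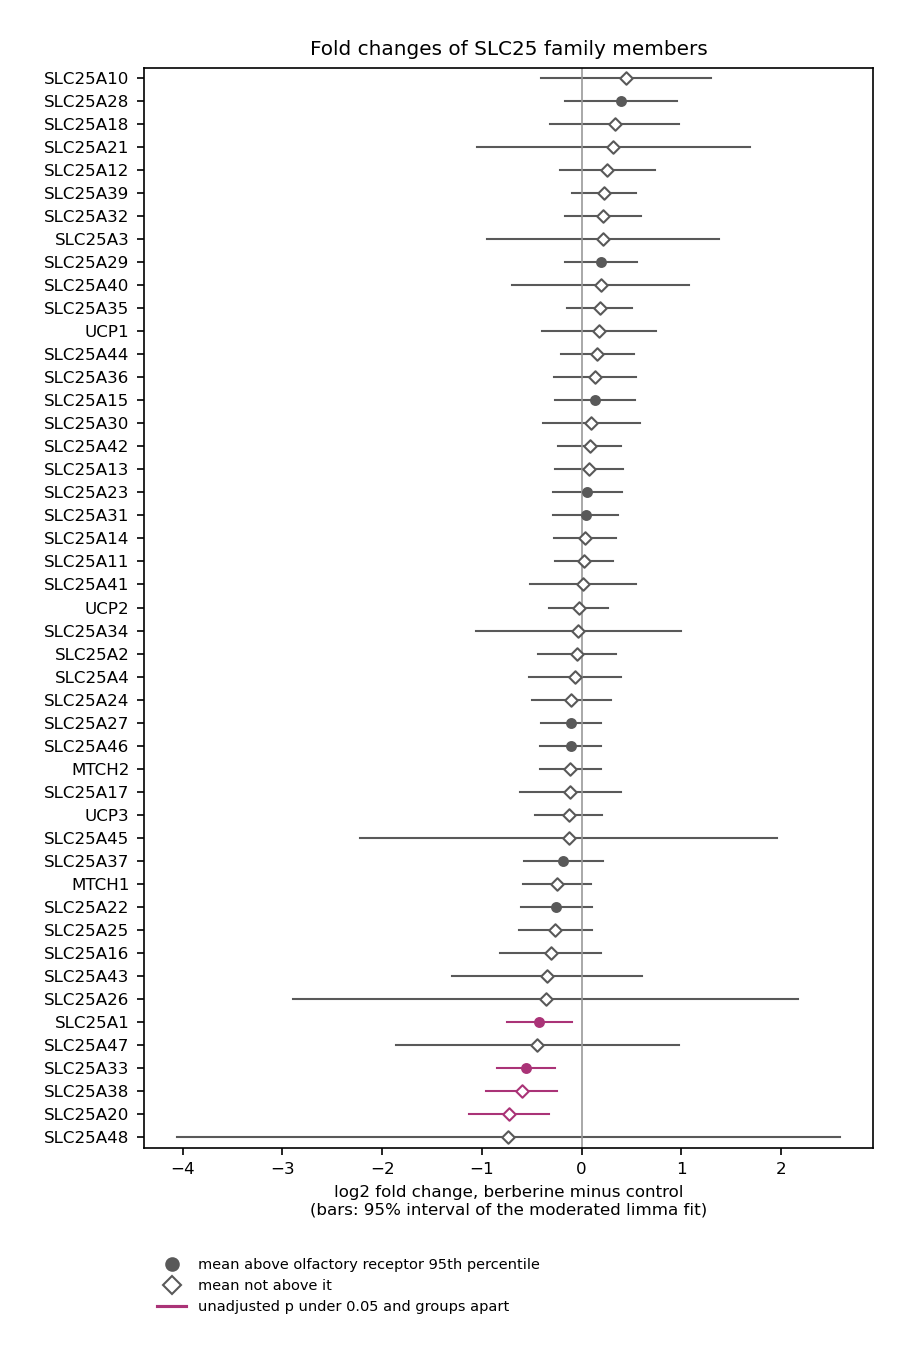
Log2 fold change (berberine minus control) of the 47 members, sorted, with 95% intervals from the limma fit; filled circles have a mean above 9.24 and open diamonds do not. Purple marks the 4 members with an unadjusted p under 0.05 and groups that did not overlap, SLC25A1, SLC25A33, SLC25A38 and SLC25A20, whose intervals lie below 0, while the intervals of all other members cross 0.

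The cofactor and nucleotide carriers included the 1 member that passed the trend test. SLC25A33 carries pyrimidine nucleotides into mitochondria. It read 11.10 and 11.08 in the controls and 10.53 and 10.52 with berberine. After quantile normalization both berberine samples were lower, and the gap was many times the distance between replicates. The group means were 11.09 ± 0.01 and 10.53 ± 0.01 (SD, n = 2 in each group), a level 1.47-fold lower with berberine. The log2 fold change was -0.56 with an SE of 0.105 (limma adjusted p = 0.22, 95% interval -0.85 to -0.27). In the trend test its SE was 0.067 and its limma adjusted p 0.0394. The deposited intensities of the same probe were 2527 and 2119 in the controls and 1234 and 1454 with berberine. The groups were thus apart before normalization too, but the replicates were less close together. The call in the trend test was lost without control replicate 1, control replicate 2, berberine replicate 1 or berberine replicate 2 (limma trend adjusted p = 0.296, 0.189, 0.585 and 0.591), where 0 of all genes passed. It was also lost with the trend and values as deposited (0.0895), median centring (0.0731) or the replicate number as a block (0.0836). The log2 fold change was -0.90 with median centring.

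SLC25A36, the other pyrimidine nucleotide carrier, had groups that overlapped, with samples from 7.51 to 7.80 and a log2 fold change of 0.14 (95% interval -0.27 to 0.55). SLC25A32, which carries folate or flavin into mitochondria, read 6.51 and 6.61 in the controls and 6.66 and 6.89 with berberine, a log2 fold change of 0.21 with an SE of 0.137 (limma adjusted p = 0.564). SLC25A42 and SLC25A16, linked to the import of coenzyme A, had log2 fold changes of 0.08 and -0.31. SLC25A17, a carrier of the peroxisome, was at -0.12. These last 3 had mean levels from 4.91 to 5.49, below the olfactory receptor median. SLC25A16 turned to 0.25 and SLC25A17 to 0.30 with values as deposited.

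Among the di- and tricarboxylate carriers, SLC25A1 exports citrate from mitochondria to the cytosol, where it feeds fatty acid and sterol synthesis. It read 10.98 and 11.02 in the controls and 10.51 and 10.65 with berberine. Both berberine samples lay below both controls. The group means were 11.00 ± 0.02 and 10.58 ± 0.10 (SD, n = 2 in each group). The log2 fold change was -0.42 with an SE of 0.117 (limma adjusted p = 0.313, limma trend adjusted p = 0.116), and median centring gave -0.78 and the values as deposited -0.66. SLC25A1 passed no test after adjustment under any processing tried.

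After quantile normalization SLC25A11, the oxoglutarate carrier of the malate-aspartate shuttle, stayed within 0.05 of itself across the arrays. Values were 8.81 and 8.85 in the controls and 8.86 and 8.86 with berberine. Its log2 fold change was 0.03 with a 95% interval from -0.26 to 0.32, and its sign was the opposite under median centring (-0.29) and for values as deposited (-0.18). SLC25A10, which exchanges dicarboxylates for phosphate, read 6.78 and 7.60 in the controls and 7.60 and 7.67 with berberine, so that control replicate 1 alone stood low. A dimmer probe for SLC25A10 read 5.31 and 6.65 in the controls and 5.33 and 6.65 with berberine. There the replicate numbers, not the groups, separated the samples. SLC25A21, the oxodicarboxylate carrier, ranged from 4.89 to 6.18 within the controls alone, and its 95% interval ran from -1.05 to 1.68.

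SLC25A20 exchanges acylcarnitines for carnitine and so admits long-chain fatty acids to oxidation. Its brighter probe read 6.82 and 6.55 in the controls and 5.91 and 6.01 with berberine. The groups did not overlap, with means of 6.69 ± 0.19 and 5.96 ± 0.07 (SD, n = 2 in each group). The log2 fold change was -0.73 with an SE of 0.146 (limma adjusted p = 0.238, limma trend adjusted p = 0.135), a 1.66-fold lower level. The second probe named SLC25A20, with a mean of 6.10, read 4.87 and 6.94 in the controls and 5.63 and 6.96 with berberine, a log2 fold change of 0.39 with an SE of 0.87. The probes differed in sign, and their mean gave -0.17. All these values lie in the background range.

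SLC25A38 imports glycine into mitochondria, the first substrate of haem synthesis. It read 7.29 and 7.47 in the controls and 6.72 and 6.85 with berberine, also in the background range. The groups did not overlap, and their means were 7.38 ± 0.12 and 6.78 ± 0.09 (SD, n = 2 in each group). The log2 fold change was -0.60 with an SE of 0.129 (limma adjusted p = 0.253, limma trend adjusted p = 0.132), a 1.52-fold lower level.

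Promoter sequences are shown for these 4 members because they had the smallest p-values in the family and all read lower with berberine. Each line gives the 250 bases before the human gene's start from RefSeq (build GRCh38.p14), 5′ to 3′ on the gene's strand. They are sequences of the labelled cells' genome, not of the mouse probes. Capitals mark, on either strand, the GC box GGGCGG, the CCAAT box CCAAT, the E-box CACGTG, the cyclic AMP response element TGACGTCA and the palindromic core motif of NRF1, a factor of mitochondrial gene expression. SLC25A33 lies at chr1:9539215-9539464 (+ strand), SLC25A1 at chr22:19178737-19178986 (- strand), SLC25A20 at chr3:48898883-48899132 (- strand) and SLC25A38 at chr3:39383120-39383369 (+ strand).
SLC25A33: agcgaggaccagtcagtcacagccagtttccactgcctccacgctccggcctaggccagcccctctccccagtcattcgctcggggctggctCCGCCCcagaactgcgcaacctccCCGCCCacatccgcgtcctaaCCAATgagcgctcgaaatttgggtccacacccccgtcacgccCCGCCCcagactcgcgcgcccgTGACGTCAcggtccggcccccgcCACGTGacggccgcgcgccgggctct
SLC25A1: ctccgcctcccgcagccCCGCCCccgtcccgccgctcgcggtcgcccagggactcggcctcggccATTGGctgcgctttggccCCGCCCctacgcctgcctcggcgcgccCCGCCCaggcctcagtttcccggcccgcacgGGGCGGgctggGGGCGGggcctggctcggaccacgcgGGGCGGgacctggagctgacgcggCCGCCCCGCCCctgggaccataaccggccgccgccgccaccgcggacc
SLC25A20: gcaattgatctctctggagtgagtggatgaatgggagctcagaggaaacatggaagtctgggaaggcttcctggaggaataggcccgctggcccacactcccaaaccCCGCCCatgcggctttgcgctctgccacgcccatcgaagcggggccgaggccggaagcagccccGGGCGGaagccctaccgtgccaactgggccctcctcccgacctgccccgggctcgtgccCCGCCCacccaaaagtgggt
SLC25A38: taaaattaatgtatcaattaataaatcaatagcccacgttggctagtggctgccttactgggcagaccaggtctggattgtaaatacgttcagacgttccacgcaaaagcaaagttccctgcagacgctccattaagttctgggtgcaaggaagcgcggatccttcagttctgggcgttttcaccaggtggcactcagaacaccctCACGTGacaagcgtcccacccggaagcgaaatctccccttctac

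The window of SLC25A33 held 3 GC boxes, 1 CCAAT box, 1 E-box and 1 cyclic AMP response element. That of SLC25A1 held 8 GC boxes, some overlapping, and 1 CCAAT box, in 81.6% G and C. That of SLC25A20 held 3 GC boxes, and that of SLC25A38, with 49.6% G and C, held 1 E-box. No motif of the 5 was present in all 4 windows, and the NRF1 core was in none of them. Of the 47 members 40 had a window, and the first listed was used for each. The E-box was in 7 of these 40 (17.5%), against 7.84% of 15843 windows of coding genes. The cyclic AMP response element was in 3 (7.5%, against 2.32%), the GC box in 26 (65%, against 56%), the CCAAT box in 17 (42.5%, against 34.5%) and the NRF1 core in 3 (7.5%, against 7.65%). The median G and C content was 66% in the family and 62.4% in all coding windows. Such matches describe letters only, and no difference between these shares was tested.

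**Figure D3:**
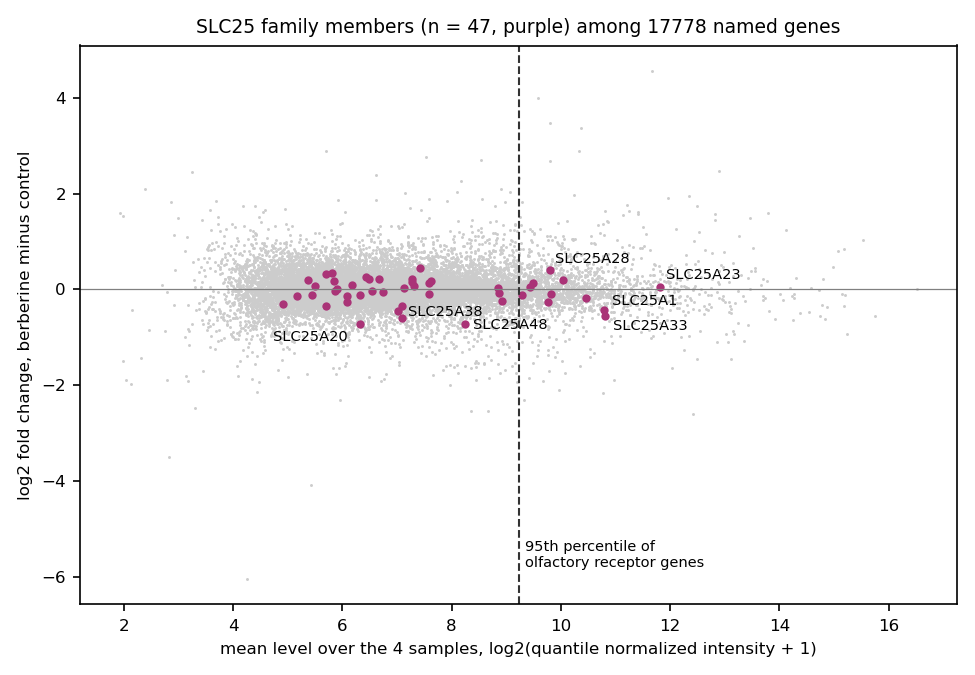
Mean level over the 4 samples against log2 fold change (berberine minus control) for 17778 named genes in grey and the 47 family members in purple; the dashed line marks 9.24, the upper background level from olfactory receptors. The members lie within the body of all genes, from -0.73 to 0.45, with SLC25A33 and SLC25A1 the lowest of those to the right of the line.

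The adenine nucleotide carriers exchange ATP for ADP across the inner membrane. Of these, 2 were measured. SLC25A4, the form of heart and muscle, read 9.01 and 8.79 in the controls and 8.69 and 8.98 with berberine. The groups overlapped, and the log2 fold change was -0.07 (95% interval -0.53 to 0.39, limma adjusted p = 0.881), or -0.36 with median centring. SLC25A31, a form known from testis, read 9.48 and 9.36 in the controls and 9.41 and 9.51 with berberine, a log2 fold change of 0.04 (95% interval -0.28 to 0.37), and it turned to -0.18 with values as deposited. A second SLC25A31 probe, with a mean of 5.84, read 6.09 and 5.92 in the controls and 5.63 and 5.72 with berberine.

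Among the carriers of phosphate and ATP-Mg, SLC25A23, a calcium-regulated exchanger of ATP-Mg for phosphate, gave close values on all arrays after quantile normalization. Its mean was above 9.24 but below the highest mean of an olfactory receptor gene. It read 11.87 and 11.71 in the controls and 11.80 and 11.90 with berberine. Its deposited intensities were 4373 and 3313 in the controls and 3027 and 3760 with berberine. The groups overlapped, and the log2 fold change of 0.06 had a 95% interval from -0.29 to 0.40 (limma adjusted p = 0.863), though it turned to -0.17 with values as deposited. Its relatives SLC25A24, SLC25A25 and SLC25A41 had log2 fold changes of -0.10, -0.26 and 0.01. After quantile normalization only SLC25A25 had groups that did not overlap, from 6.30 and 6.11 to 5.88 and 6.01. Its deposited intensities, 89 and 52 in the controls and 58 and 67 with berberine, did overlap, with a log2 fold change of -0.12. SLC25A3, the phosphate carrier on which ATP synthesis depends, read 5.88 and 6.88 in the controls and 6.88 and 6.30 with berberine. A mean of 6.48 lies well inside the background range for this probe, and its interval reached from -0.95 to 1.37.

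The uncoupling proteins gave low signals. UCP1, the heat-producing proton carrier of brown fat, read 5.90 and 5.62 in the controls and 5.72 and 6.14 with berberine, below or near the olfactory receptor median of 6.05. UCP3, known from skeletal muscle, read 5.16 and 5.29 in the controls and 5.15 and 5.04 with berberine. UCP2, the broadly expressed form, read 6.55 and 6.57 in the controls and 6.51 and 6.55 with berberine. After quantile normalization all 4 UCP2 values lay within a narrow range. Deposited intensities of this probe were 107 and 79 in the controls and 87 and 102 with berberine. Its log2 fold change was -0.03 with a 95% interval from -0.32 to 0.26 (limma adjusted p = 0.923). A second UCP2 probe, at a mean of 5.31, read 5.16 and 5.29 in the controls and 5.33 and 5.43 with berberine, with a log2 fold change of 0.16. The log2 fold changes were 0.17 for UCP1 and -0.13 for UCP3 (limma adjusted p = 0.749 and 0.678), and that of UCP3 turned to 0.29 with values as deposited.

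Of the nearest relatives of the uncoupling proteins, SLC25A27, known mainly from brain, lay above 9.24. It read 9.90 and 9.83 in the controls and 9.74 and 9.78 with berberine, with groups that did not overlap. Its log2 fold change of -0.11 had an SE of 0.108 (limma adjusted p = 0.704). Median centring gave -0.45. SLC25A14 and SLC25A30 were at 0.03 and 0.10 with overlapping groups.

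Among the aspartate and glutamate carriers, SLC25A22, which imports glutamate, read 9.91 and 9.86 in the controls and 9.73 and 9.52 with berberine. Both berberine samples were lower, by -0.25 on the log2 scale (SE 0.129, limma adjusted p = 0.483), and by -0.60 with median centring. SLC25A13, the aspartate-glutamate carrier of liver (citrin), read 7.31 and 7.24 in the controls and 7.43 and 7.26 with berberine, a log2 fold change of 0.07. SLC25A12, its counterpart in muscle and brain, went from 6.49 and 6.11 to 6.51 and 6.61, a log2 fold change of 0.26 with an SE of 0.172. SLC25A18, the other glutamate carrier, was at 0.33 with groups that overlapped. None of these 4 passed a test after adjustment.

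Of the carriers of other amino acids, S-adenosylmethionine and glutathione, 9 were measured, and those above 9.24 were both carriers of basic amino acids. SLC25A29 read 9.83 and 10.05 in the controls and 10.14 and 10.13 with berberine, a log2 fold change of 0.20 with an SE of 0.13 (limma adjusted p = 0.575). Its sign reversed under both other scalings, to -0.05 as deposited and -0.16 after median centring. SLC25A15, the ornithine carrier of the urea cycle, read 9.54 and 9.32 in the controls and 9.65 and 9.47 with berberine. The groups overlapped, and the log2 fold change of 0.13 became -0.08 and -0.20 under those settings. SLC25A2, a second ornithine carrier, was at -0.05 on its brighter probe, which read 6.89 and 6.65 in the controls and 6.66 and 6.79 with berberine. Its dimmer probe read 4.60 and 5.10 in the controls and 5.33 and 4.49 with berberine.

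SLC25A39, required for mitochondrial glutathione, read 7.17 and 7.15 in the controls and 7.46 and 7.31 with berberine, a log2 fold change of 0.22 with an SE of 0.116 (limma adjusted p = 0.495). Its close relative SLC25A40 ranged from 5.04 to 5.88 with overlapping groups. SLC25A44, a carrier of branched-chain amino acids, was at 0.16.

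The widest spread between replicates was found for SLC25A48 and SLC25A26. SLC25A48 read 8.03 and 9.19 in the controls and 6.29 and 9.48 with berberine, and its 95% interval ran from -4.05 to 2.59. SLC25A26, which imports S-adenosylmethionine, read 6.28 and 8.26 in the controls and 6.09 and 7.74 with berberine. For both genes replicate 2 was higher than replicate 1 in each group, by more than the groups differed. The deposited intensities of SLC25A26 were 88 and 295 in the controls and 67 and 220 with berberine, so the split by replicate number was present before normalization. Nothing could be said about berberine for either gene at this spread.

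The iron carriers, called mitoferrins, supply iron for haem and iron-sulphur clusters, and both were above 9.24. SLC25A37, the form of red cell precursors, read 10.52 and 10.57 in the controls and 10.50 and 10.23 with berberine, with a log2 fold change of -0.18 and an SE of 0.144 (limma adjusted p = 0.624). Median centring gave -0.56 for it, and the deposited values -0.45. SLC25A28, the broadly expressed form, read 9.41 and 9.79 in the controls and 9.84 and 10.15 with berberine. Its log2 fold change was 0.40 with an SE of 0.202 (limma adjusted p = 0.484), a size close to that of SLC25A1 in the other direction but with a wider spread between replicates. It was 0.04 with median centring and 0.16 with values as deposited. After quantile normalization the groups overlapped for neither iron carrier. The deposited SLC25A28 intensities were 781 and 885 in the controls and 766 and 1122 with berberine, so its groups overlapped before normalization. The difference between the iron carriers' fold changes was not tested.

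All 3 members of the outer membrane had berberine values below both controls after quantile normalization, as did 23.3% of all genes. MTCH1, which with MTCH2 is known for inserting proteins into the outer membrane, read 9.15 and 8.95 in the controls and 8.80 and 8.80 with berberine, a log2 fold change of -0.25 with an SE of 0.124 (limma adjusted p = 0.481). Median centring gave -0.56 and the deposited values -0.44. MTCH2 was at -0.11, with values between 6.23 and 6.42, or -0.14 with median centring and -0.02 as deposited. Its deposited intensities were 98 and 62 in the controls and 70 and 84 with berberine, so its groups overlapped before normalization. SLC25A46, linked to mitochondrial shape and lipid transfer, read 9.30 and 9.39 in the controls and 9.23 and 9.24 with berberine, a log2 fold change of -0.11 (limma adjusted p = 0.7), or -0.44 with median centring and -0.33 as deposited. A second SLC25A46 probe read 3.51 and 4.89 in the controls and 4.52 and 3.61 with berberine, all below the olfactory receptor median. None of the 3 passed a test, and all 3 of their 95% intervals crossed 0.

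Of the 5 little studied members, SLC25A35 was higher in both berberine samples after quantile normalization, from 7.60 and 7.48 to 7.76 and 7.68. Its deposited intensities were 221 and 162 in the controls and 192 and 211 with berberine, so its groups overlapped before normalization. The log2 fold change of 0.18 became -0.02 with median centring. SLC25A34, SLC25A43, SLC25A45 and SLC25A47 had overlapping groups. SLC25A47, a carrier known mainly from liver, read 6.55 and 7.92 in the controls and 6.97 and 6.61 with berberine.

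How large a change in probe signal could have been missed was read from the 95% intervals. These do not bound changes in the transcript, since how well it binds the mouse probes is not known. Intervals were narrow at background level too. SLC25A42 and UCP3, with means of 5.49 and 5.16 below the olfactory receptor median, had intervals from -0.23 to 0.40 and from -0.46 to 0.20. For 36 of 47 members the interval lay within 1 of 0 on the log2 scale. For the other 11 it reached past that size in at least 1 direction, and among them were SLC25A20, SLC25A10, SLC25A3, SLC25A26 and SLC25A48. The median replicate SD was 0.098 for the 11 members above 9.24 and 0.167 for the 36 others. An exact permutation test of 1 gene in this design cannot go below a 2-sided p of 0.333.

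**Figure D4:**
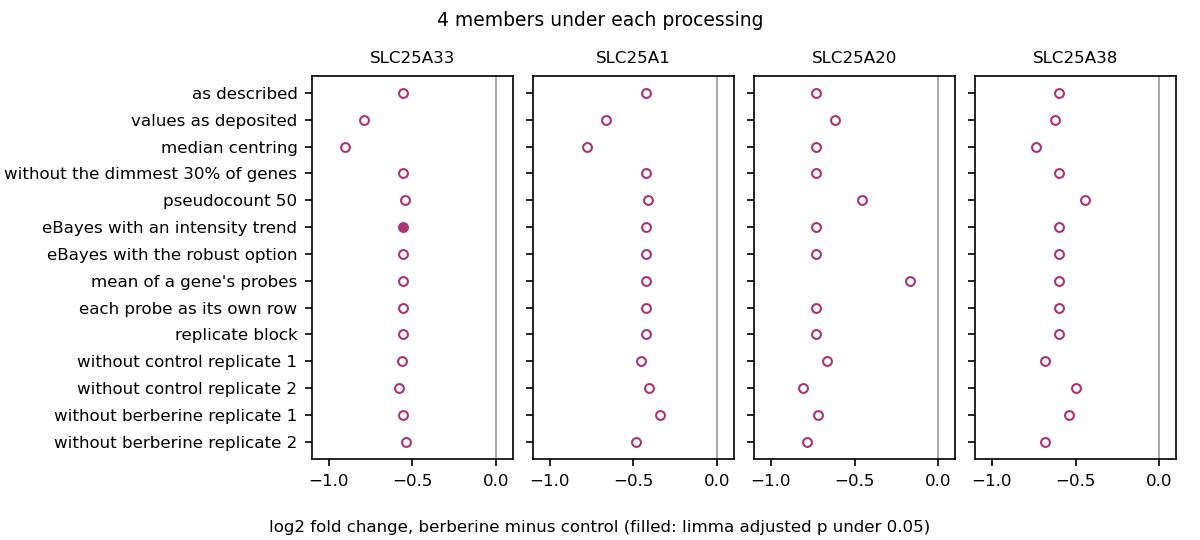
Log2 fold change (berberine minus control) of SLC25A33, SLC25A1, SLC25A20 and SLC25A38 under the processing described and under each of 13 other settings; a filled point has a limma adjusted p under 0.05. All points lie below 0, the 1 filled point is SLC25A33 with an intensity trend, and SLC25A20 comes closest to 0, at -0.17, when its 2 probes are averaged.

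Other genes of mitochondrial transport were taken from a list of 36, of which 29 were measured. Of these, 0 passed the limma test or the trend test, and 3 had an unadjusted limma p under 0.05. TIMM9, a chaperone that guides carrier proteins to the inner membrane, read 8.15 and 8.01 in the controls and 8.52 and 8.65 with berberine, a log2 fold change of 0.51 (limma adjusted p = 0.28, trend 0.133). BRP44, an older name of a subunit of the mitochondrial pyruvate carrier, was at -0.45 (limma adjusted p = 0.307), with a mean of 6.15. TOMM40, the pore of the outer membrane for proteins, was at 0.40 with a mean of 5.44 and was chosen to complete the count of 3. The median log2 fold change over the 29 was -0.02, against -0.03 in the carrier family and -0.01 over all genes.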

How the data were processed

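Values were the authors' deposited intensities, whole numbers on a linear scale for 26423 probes, some below 0. Per the labels' protocols, Cy5-labelled amplified RNA was hybridised. How they were scanned, background-corrected and scaled is not stated in the labels. The platform annotation of probes gave 20377 probes 1 gene symbol, and the others were left out. Intensities were quantile normalized over all probes, negative values were raised to 0 and log2(value + 1) computed, because the medians as deposited spanned 0.53 on the log2 scale. A gene with several probes was represented by the one with the highest mean. Fits used limma 3.58.1 in R 4.3.3 (lmFit, eBayes, all 4 samples, no block, 2 residual degrees of freedom), 2-sided, Benjamini-Hochberg adjusted. The fits were tried on simulated data in which the planted changes were larger than the fold change of any member. That trial does not cover changes of the sizes reported here. Figures used matplotlib 3.10.9. The alternatives are listed with their effects in the closing section.

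Members, gene lists and named genes were chosen with earlier results of these data known. Per-sample values are given, by rule, for members past a threshold, with an unadjusted p under 0.05 and groups apart, above the olfactory receptor 95th percentile, with several probes, and for UCP1, UCP2 and UCP3. Others are named beyond it. The 5 promoter motifs were picked after 4 promoters had been seen. Protein sequences were not used here.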

Additional observations from a re-analysis of the deposited data

How the results depend on the processing

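There were 2 arrays a group, and 36 members had means at or below the 95th percentile of the background reference. All members lay below its highest level. Family members past the limma threshold numbered 0 in every setting except the intensity trend, where SLC25A33 made it 1. Over all genes the count was 9 as described, 2 with values as deposited, 3 with each probe as its own row, and 0 with median centring or the replicate number as a block, where an unadjusted limma p under 0.05 was found for 2247 and 1878 genes. The count was 138 without the dimmest 30% of genes, 251 with a pseudocount of 50 and 260 with the trend, and the cause was not tested. It was 0 when control replicate 1, control replicate 2, berberine replicate 1 or berberine replicate 2 was left out. Settings chosen after seeing the data, the trend with values as deposited, with median centring and with the replicate number as a block, gave 283, 188 and 202 genes, and 0 for each sample left out. The family count was 0 with the trend and values as deposited, median centring or the replicate block. An unadjusted limma p under 0.05 was found there for 3, 9 and 5 of 47 members. Of all 17778 genes, 1042, 3041 and 2398 had such a p in the same settings. Members whose groups did not overlap numbered 21 as described, 10 with values as deposited (again 10 with the trend; 24.1% of all genes), 20 with median centring (2 higher and 18 lower; 47.3% of all genes), and 32 to 35 with 1 sample left out (32 to 35 with the trend too; 67.7% to 73.7% of all genes), where a lone sample overlaps less often and is assumed to vary like the other group. Without berberine replicate 2 it was 33. The family median stayed between -0.12 and 0.01. SLC25A33, SLC25A1, SLC25A20 and SLC25A38 were negative in all 20 settings. They were picked for small p-values in these same data, and several settings cannot alter a fold change, so this is no separate evidence. Of the 43 other members, 29 changed sign in at least 1 setting, and the share over all genes was not counted. Same-numbered replicates share only a number in the titles. Differences between replicates correlated at 0.09 across genes between the groups, and without the trend the family count was 0 both with and without the replicate block.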
